A study of Capra hircus with 2 samples.

Results

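The miR-23, miR-27 and miR-24 microRNAs of the goat endometrium were examined through every known name whose part after miR- was 23a, 23b, 27a, 27b or 24, whatever its species prefix, arm or end annotation. Of the 587 known names, 8 met this rule, and each of the 8 was listed for 1 precursor. Among the rows used here none was named for miR-23a, 3 were listed for miR-23b, 1 for miR-27a, 2 for miR-27b and 2 for miR-24. Endometrium came from multiparous Xinong Saanen dairy goats aged 24 months, brought into estrus together and mated naturally, and was taken from the anterior uterine wall on gestation day 5 (P library, pre-receptive) or day 15 (R library, receptive). Tissue was collected from 10 goats per phase, and RNA from 9 of them went into 3 mixed samples of equal concentration for each phase. The tables hold 1 value per name and library, so there were 2 libraries and no replicates, and every test below compares the libraries and not the phases. The spread between goats was not measured.

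MicroRNAs are short RNAs that guide silencing complexes to messenger RNAs, mainly through bases 2 to 8 of the mature strand, the seed. A hairpin precursor gives a 5p and a 3p strand, of which the more abundant one usually enters the silencing complex. In mammals miR-23, miR-27 and miR-24 are cut from a pair of paralogous clusters. The a cluster holds mir-23a, mir-27a and mir-24-2, and the b cluster holds mir-23b, mir-27b and mir-24-1. The 3p strand of miR-24 is the same from both clusters, while the a and b forms of miR-23 and of miR-27 differ by a base near the 3′ end. The families are known for roles in blood vessel growth, metabolism and the cell cycle: miR-23 represses glutaminase, miR-27 represses FOXO1 and PPARG, and miR-24 represses cell cycle genes. In the goat RefSeq annotation of assembly ARS1.2, MIR23A and MIR27A neighbour each other within the span of ZSWIM4. MIR23B, MIR27B and MIR24 follow one another within the span of C8H9orf3, and this is the 1 entry named MIR24.

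The 8 sequences below are those deposited for the members. They are shown because the a and b loci, the arms and the end variants can be told apart only by these bases. Each is written 5′ to 3′ as DNA letters, with the seed in capitals.
miR-23b-3p: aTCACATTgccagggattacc
miR-23b variant: tCACATTGccagggattag
miR-23b-5p: gGGTTCCTggcatgctgattt
miR-27b-3p: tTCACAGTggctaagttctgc
miR-27a variant: tTCACAGTggctgagttcc
miR-27b-5p: aGAGCTTAgctgattggtgaac
miR-24-3p: tGGCTCAGttcagcaggaacagt
miR-24-5p: gTGCCTACtgagctgaaacacagt

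The short names stand for cgr-miR-23b-3p, oar-miR-23b_L-1R+2, cgr-miR-23b-5p_R+1, bta-miR-27b, oar-miR-27a_R-2_1ss13AG, hsa-miR-27b-5p, eca-miR-24_R+1 and hsa-miR-24-1-5p_L+1_3ss17TA19TC20-A, in the order printed. The prefix is that of the species whose database entry named the sequence, L and R give bases gained or lost at the left and right end, and ss gives substitutions. bta-miR-27b and eca-miR-24_R+1 carry no arm in their name and were placed on the 3p arm because the labelled 5p names of these hairpins share no run of 12 bases with them. The listed sequences were 19 to 24 nt long. The miR-27b-3p sequence and the miR-27a variant share a seed, and no other 2 members do. The seeds of miR-23b-3p and miR-27b-3p differ at 1 of 7 bases, T7G with positions counted from the 5′ end of miR-23b-3p, and their 21 bases are identical at 11 positions. Over its 19 bases the miR-27a variant differs from miR-27b-3p by A13G and T19C, counted in miR-27b-3p. The miR-23b variant starts 1 base later than miR-23b-3p, which moves its seed by 1 base, and over 19 compared bases it differs by C20G. The miR-24-5p sequence is 2 bases longer than the database entry it was named for and carries T17A and T19C and an inserted A, counted in the listed sequence. By the L+1 in its name it gains 1 base at the 5′ end, which moves its seed by 1 base from that entry. Whether it came from the mir-24-1 or the mir-24-2 hairpin was not tested.

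Names of the b locus held nearly all reads of miR-23 and miR-27, and miR-27b-3p was the most abundant member in both libraries. Values are given as normalized expression (NE), the authors' reads divided by a size factor of the library. The values step by 0.860 NE in R and by 1.16 NE in P, the worth of 1 read, so reads could be recovered. miR-27b-3p, the strand that is known to repress FOXO1, had 32939 NE in R (38306 reads) and 54409.6 NE in P (46786 reads). It ranked 11 in R and 10 in P among the known names. miR-23b-3p had 6731 NE in R (7828 reads) and 8977 NE in P (7719 reads). miR-24-3p, which both clusters can supply, had 8886 NE in R (10334 reads) and 8989.6 NE in P (7730 reads). These 3 strands made up 99.7% of the members' reads in R and 99.9% in P.

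The remaining 5 names were rare. miR-24-5p had 108 NE in R (126 reads) and 43.0 NE in P (37 reads). miR-27b-5p had 53.3 NE in R (62 reads) and 48.8 NE in P (42 reads). For 3 names the R library had no read, and these were the members not tested. miR-23b-5p was listed at 0 in R and at 4.65 NE in P, from 4 reads, and its log2 ratio had an exact upper bound of 0.16 in NE, 0.95 per clean reads and 1.68 per listed reads. The miR-23b variant and the miR-27a variant were each listed at 0 in R and at 2.33 NE in P, from 2 reads. A count of 0 allows up to 3 reads, equal to 2.58 NE in R and 3.49 NE in P. These limits and all intervals given here cover counting error only, since reads amplified by PCR without molecular identifiers are not independent molecules.

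**Figure D1:**
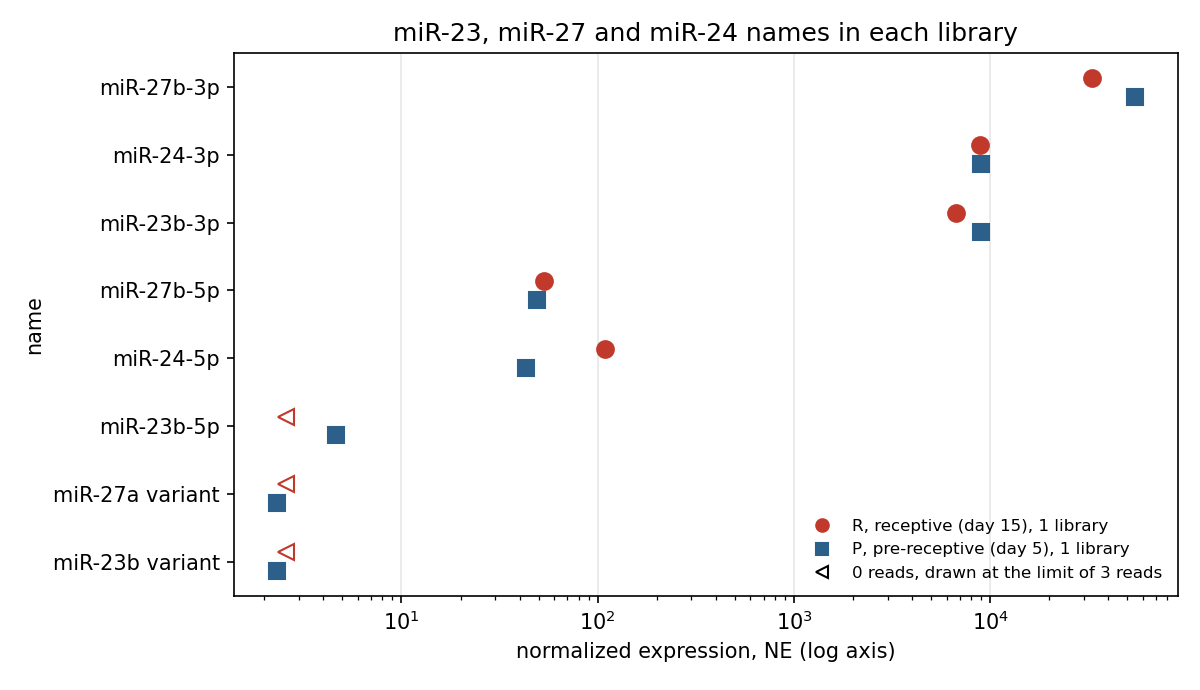
Normalized expression (NE, log axis) of the 8 names in the R library (circles) and the P library (squares), 1 value per library. Open triangles stand for 0 reads and are drawn at the limit of 3 reads. miR-27b-3p is highest, at 32939 NE in R and 54409.6 NE in P, and 3 names have reads in P alone, with 4 reads at most.

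In order of level, miR-27b-3p stood above miR-24-3p and miR-23b-3p in both libraries. In P, miR-24-3p and miR-23b-3p could not be told apart, at 0.191% (95% exact Clopper-Pearson interval 0.187% to 0.195%) and 0.191% (0.186% to 0.195%) of the listed reads. In R, miR-24-3p stood above miR-23b-3p, at 0.540% (0.530% to 0.551%) against 0.409% (0.400% to 0.418%). The 5p strands of miR-24 and miR-27b had overlapping intervals in P, at 0.000914% (0.000643% to 0.00126%) and 0.00104% (0.000747% to 0.00140%). In R they did not overlap, at 0.00659% (0.00549% to 0.00784%) for miR-24-5p and 0.00324% (0.00249% to 0.00416%) for miR-27b-5p.

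Names of miR-23a and miR-27a held almost no reads. The only such name was the miR-27a variant, whose 2 reads in P and 0 reads in R were both under the limit of 3 reads, so no fold is given. The P library value of that name equals 4.94e-05% of the listed reads of the P library, with an upper bound of 0.000178%. Yet the table that lists precursors by species gave mir-23a for 13 of 23 species, mir-27a for 15, mir-23b for 12 and mir-27b for 12. It gave mir-24-1 for 9 species and mir-24-2 for 10. By the header of the expression table, a name is the first known microRNA name in a cluster of reads and the sequence is the read with the highest mapping score in it, so reads of an a form counted under a b name cannot be told apart from reads of the b form. Statements on the b locus therefore concern the names miR-23b and miR-27b, and not the transcription of that locus. Likewise, the near absence of miR-23a and miR-27a names does not cover the whole a cluster, which also holds mir-24-2. The less abundant strand of miR-24 had 126 reads in R and 37 reads in P. Whether it came from mir-24-1 or mir-24-2 was not tested.

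Between the libraries, 1 of the 5 names tested passed the call in NE, miR-24-5p, which was higher in R, while 4 of the 5 passed in reads per listed reads (miR-23b-3p, miR-24-3p, miR-27b-5p and miR-24-5p), a scaling that calls 41.1% of all names tested and 39.4% as higher in R. A name was called when the two-sided Fisher's exact test of its reads against the remaining clean reads had a Benjamini-Hochberg adjusted p under 0.05 over all 564 names tested and the NE ratio was beyond 1 in either direction on the log2 scale, with at least 1 NE in 1 library and a value above 0 in both. Over all names 128 were called, 22.7% of those tested, with 94 (16.7%) higher in R and 34 (6.03%) lower in R. A count of 1 in 5 in NE is close to this background and says nothing particular about the members. The log2 ratio of miR-24-5p was 1.33 (95% exact interval 0.79 to 1.90), or 2.52-fold, with an adjusted p of 3.26e-17 by Fisher's exact test. The interval reaches below the log2 threshold of 1. The other 3 scalings move every log2 ratio up and leave this p as it is, so they do not test this call. miR-27b-5p, on the same arm of its own hairpin, had a log2 ratio of 0.13 (-0.46 to 0.73), which spans 0.

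The abundant 3p strands had log2 ratios of NE between -0.72 and -0.017, and each of these signs depended on how the libraries were scaled. miR-27b-3p had a log2 ratio of -0.72 (-0.74 to -0.70) in NE, but 0.059 in reads per clean reads and 0.79 in reads per listed reads. miR-23b-3p had -0.42 (-0.46 to -0.37) in NE, but 0.37 per clean reads and 1.10 per listed reads. miR-24-3p had -0.017 (-0.059 to 0.026) in NE, an interval that spans 0, but 0.056 with the median of all names set to 0, 0.77 per clean reads and 1.50 per listed reads. Scaling by clean reads moves every log2 ratio up by 0.78 and scaling by listed reads by 1.52, which takes the median of all names tested from -0.073 to 0.71 and 1.45. Relative to the median of all names tested, a place that no scaling can change, miR-27b-3p and miR-23b-3p lay below and miR-24-3p above. Fisher's exact test compares shares of clean reads, and its small adjusted p for these strands (1.11e-08 for miR-27b-3p, 7.98e-56 for miR-23b-3p and 2.53e-276 for miR-24-3p) goes with the higher share in R and not with the sign of the NE ratio. In R 0.905% of clean reads were miR-27b-3p, against 0.869% in P. With an exact binomial test that follows NE, the adjusted p of miR-24-3p was 0.664, that of miR-27b-5p was 0.900, that of miR-23b-3p was 9.13e-71 and that of miR-27b-3p was too small to be represented, the latter strands being lower in R on that scale. Since the sign depends on the scaling, no abundant strand is given a direction here.

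**Figure D2:**
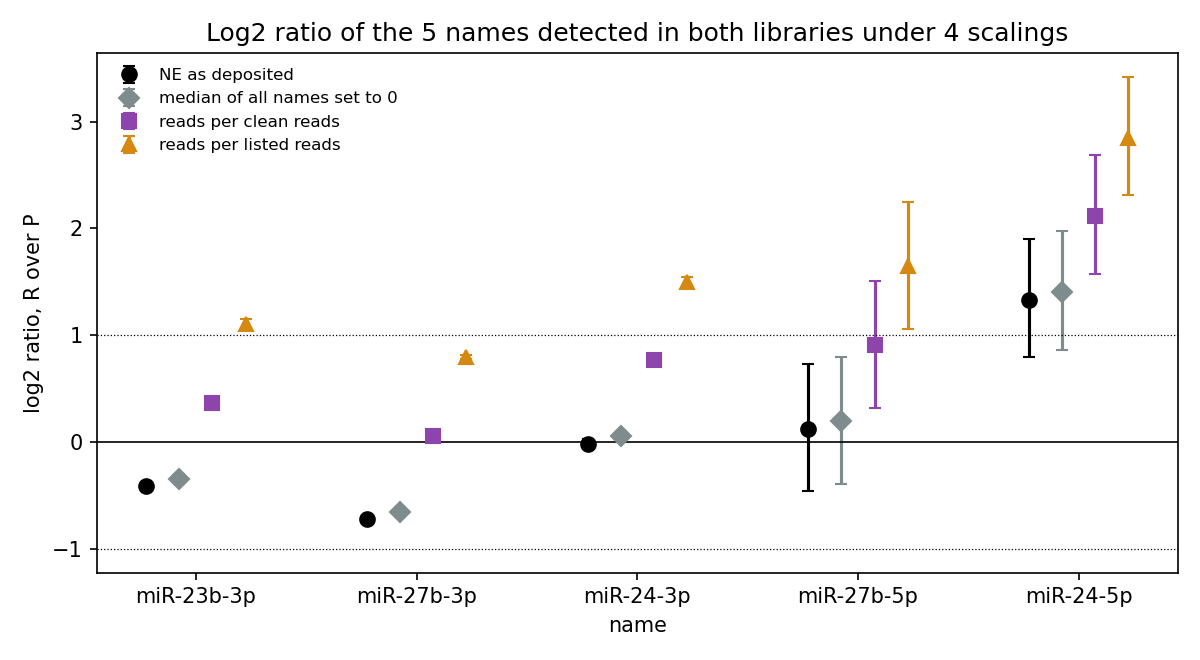
Log2 ratio of R over P (vertical axis) of the 5 names with reads in both libraries, with 95% exact intervals, for NE as deposited (circles), the median of all names set to 0 (diamonds), reads per clean reads (squares) and reads per listed reads (triangles). Dotted lines mark log2 ratios of -1 and 1. The 3 abundant 3p strands lie at or below 0 in NE and above 0 per clean reads and per listed reads. The same shift applies to every name.

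Taken as a sum, the 8 names held 48717 NE in R, against 72477 NE in P. The log2 ratio of the sums was -0.57 (95% exact interval -0.59 to -0.56) in NE, and it turned to 0.21 per clean reads and to 0.95 per listed reads. The members held 2.96% (2.94% to 2.99%) of the listed reads in R and 1.54% (1.53% to 1.55%) in P. As a share of clean reads this was 1.34% (1.33% to 1.35%) for R and 1.16% (1.15% to 1.17%) for P. The names of miR-23b and miR-27b summed to 39723 NE in R and 63442 NE in P, and those of miR-24 to 8994 NE and 9033 NE. All listed names together came to 45.2% of clean reads for R and 75.2% for P.

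Ratios between the 3p strands within a library do not depend on the scaling, and all 3 differed between the libraries beyond counting error. For each read of miR-23b-3p there were 1.32 reads of miR-24-3p in R and 1.00 in P, a log2 change of 0.40 (95% exact interval 0.34 to 0.46). For each read of miR-23b-3p there were 4.89 reads of miR-27b-3p in R and 6.06 in P, a log2 change of -0.31 (-0.36 to -0.26). The ratio of miR-24-3p to miR-27b-3p was 0.270 in R and 0.165 in P, a log2 change of 0.71 (0.66 to 0.75). Thus relative to one another miR-24-3p was higher in R, miR-27b-3p was lower in R, and miR-23b-3p lay between them. The ratio of miR-24-5p to miR-27b-5p changed in the same sense, from 0.881 in P to 2.03 in R (log2 change 1.21, 0.38 to 2.03). With 1 library per phase, whether these changes exceed the spread between goats was not tested.

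The 3p strands were also placed among the 63 known names that had at least 1000 reads in both libraries. The median log2 ratio of NE of these names was -0.56, with quartiles of -0.90 and 0.019 and a range from -2.69 to 2.29. Counted from the lowest ratio, miR-27b-3p was at place 25, miR-23b-3p at place 35 and miR-24-3p at place 47. So miR-23b-3p lay above the median of these abundant names but below that of all names tested. The names nearest to miR-27b-3p in log2 ratio were hsa-miR-125b-2-3p_L-2R+2 (-0.72), hsa-miR-155-5p (-0.71) and hsa-miR-140-3p_L-1R+2 (-0.74). Those nearest to miR-23b-3p were hsa-miR-99b-5p_R-1 (-0.35), bta-let-7d (-0.33) and oar-let-7a_2ss11GA19AT (-0.52). Those nearest to miR-24-3p were oar-miR-16b_R+2 (-0.029), oar-miR-199a-3p (-0.049) and oar-miR-29a_1ss10CT (0.054). Likeness here is the difference of a single ratio between 2 libraries, which many names share.

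**Figure D3:**
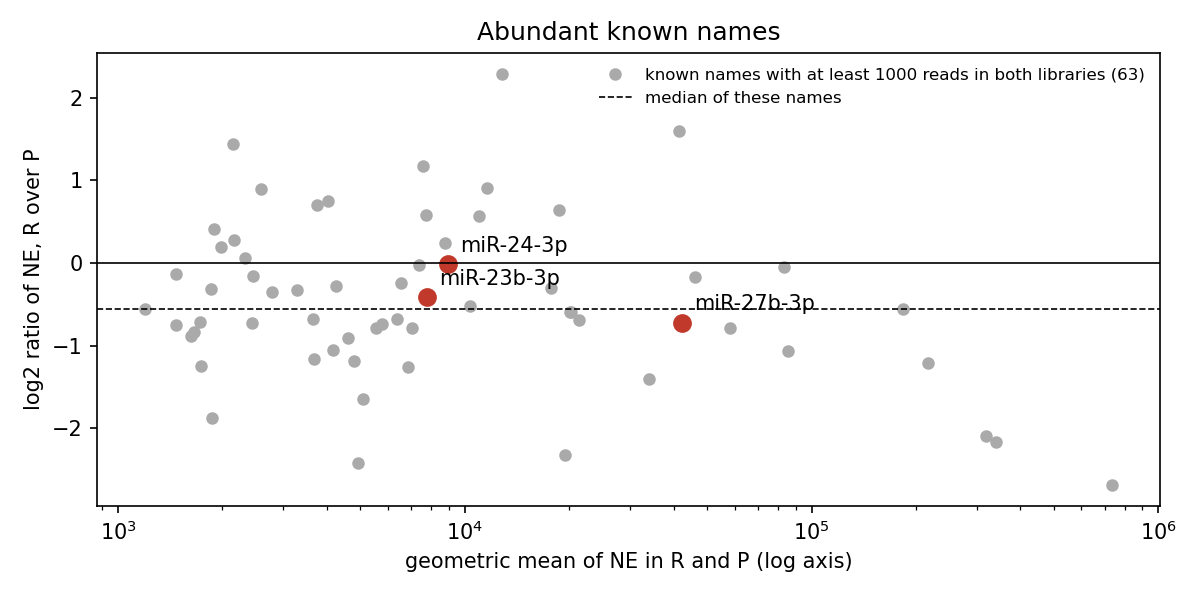
Log2 ratio of NE, R over P (vertical axis), against the geometric mean of NE in both libraries (log axis) for the 63 known names with at least 1000 reads in both. The dashed line is their median of -0.56, and the 3 labelled points are the 3p strands, with miR-27b-3p at -0.72, miR-23b-3p at -0.42 and miR-24-3p at -0.017.

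The share of the 5p arm was higher in R for miR-24 and for miR-27b. This share is measured within a hairpin name and a library, so it does not depend on the scaling. For miR-24 it is not the share of 1 hairpin, since both clusters can supply the 3p strand. For miR-24 the 5p arm held 1.20% of the hairpin reads in R, with a 95% exact interval of 1.00% to 1.43%, against 0.476% in P (0.336% to 0.656%). The log2 odds ratio was 1.35, with an adjusted p of 8.57e-07 by Fisher's exact test (two-sided, Benjamini-Hochberg adjusted over all hairpin names with both arms). For miR-27b the 5p arm held 0.162% in R (0.124% to 0.207%) and 0.0897% in P (0.0646% to 0.121%). The log2 odds ratio was 0.85, with an adjusted p of 0.0140 by Fisher's exact test. For miR-23b the 5p arm held 0 of 7828 reads in R, which allows up to 0.0383% at 3 reads, with an exact upper limit of 0.0471%, and 4 reads or 0.0518% in P (0.0141% to 0.133%). That difference did not pass, with an adjusted p of 0.209 by Fisher's exact test.

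Other hairpins were called in the same direction. Both arms were listed for 113 hairpin names with a finite odds ratio and for 31 with no read of an arm in a library. Of these hairpin names 34 were called (23.6%), 28 with a higher share of the less abundant arm in R (19.4%) and 6 with a lower share (4.17%). The median of the 113 finite log2 odds ratios was 0.41. Of the 3 member hairpins 2 were called higher. Among the 28 called higher, miR-24 was at place 12 and miR-27b at place 19 by odds ratio, so neither stood at the end of the range. Among the hairpins called, the largest rises by odds ratio were those of miR-154b (2.38% in P and 24.1% in R), miR-340 (10.5% and 54.1%) and miR-10a (0.0152% and 0.112%). Among the hairpins called, the largest falls by odds ratio were those of miR-503 (77.3% in P and 35.4% in R), miR-199b (45.6% and 27.5%) and miR-374a (20.1% and 10.5%). The unlabelled bta-miR-199b was placed on the 3p arm only because it shares no run of 12 bases with hsa-miR-199b-5p_R-1_2ss10TC17TC. The substitutions in that name can break such a run, so whether the miR-199b value compares arms was not tested. The miR-24 value compares a 5p sequence, whose hairpin of origin was not tested, with a 3p strand that both clusters share.

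**Figure D4:**
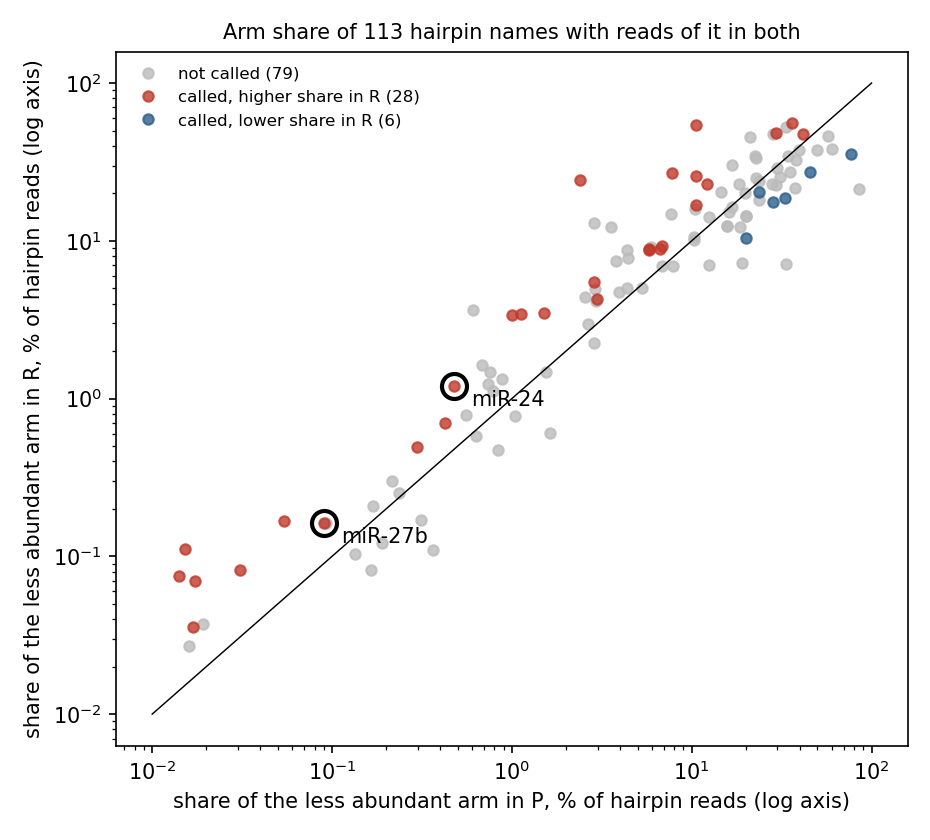
Share of the less abundant arm in R (vertical axis) against P (horizontal axis), in percent of the reads of a hairpin name on log axes, for the 113 hairpin names with reads of this arm and a finite ratio. Points above the diagonal have a higher share in R. Called names are coloured (28 higher and 6 lower in R), and the ringed points are miR-24, at 0.476% in P and 1.20% in R, and miR-27b, at 0.0897% and 0.162%.

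In NE, microRNAs known from epithelium were mostly called higher in R and those known from muscle lower, while most names known from blood cells and endothelium were not called. The lists were also scaled by reads per listed reads, a choice made after seeing the data. On that scale 5 of 8 tested muscle names were still called lower in R. Called higher were 11 of 13 epithelial, 5 of 10 blood (4 of 8 distinct sequences) and 9 of 13 endothelial names. Over all 564 names tested, 39.4% were called higher and 10 names lower on that scale. The blood count is close to that share and says nothing particular about blood names. Levels of a list are NE summed over the entries of each name, with a sequence listed under 2 names counted once, which concerns 2 miR-144 sequences of the blood list. Of 13 tested names of the epithelial list, 11 were called higher in R and none lower, with a median log2 ratio of NE of 3.04 against -0.073 over all names tested. Their summed level was 38572.5 NE in R and 6977 NE in P, and the most abundant, hsa-miR-141-3p_R-1, had 28337 NE and 5791 NE. All 8 tested names that carry an exact number of the smooth and striated muscle list were called lower in R, with a median of -3.65. Of all names tested, 6.03% were called lower in R in NE. With names that add a letter to a listed number included, a choice made after seeing the data, 3 further names were tested and not called, hsa-miR-499a-5p, hsa-miR-499a-3p_R+1 and mmu-miR-145b_R-3_1ss18GT, and the median over 11 names was -2.42. The muscle median was also -2.42 over the 5 names with at least 10 reads in both libraries. The summed level of the exact names was 292721 NE in R and 1886787 NE in P, and the most abundant, aja-miR-143_1ss22GT, had 289634 NE and 1866274 NE. Of 10 tested names of the blood and immune list 2 were called higher in R (median 0.29), and of 13 tested endothelial names 3 were (median 0.47). The 10 blood names are 8 distinct sequences, since 2 miR-144 sequences stand under 2 names each with equal values. With each sequence counted once, a choice made after seeing the data, 2 of 8 were called higher and the median was again 0.29. In NE 16.7% of all names tested were called higher in R. The blood list summed to 19504 NE in R and 16676 NE in P, with cgr-miR-142-5p_L-2R+1 as the most abundant, at 11379 NE and 5047 NE, and this name was called higher in R. Without it the order turned, and the blood list summed to 8125 NE in R against 11629 NE in P. With both names of each miR-144 sequence counted, the sums were 20031 NE in R and 17351 NE in P, or 8652 NE and 12304 NE without miR-142-5p. The endothelial list summed to 36889.7 NE in R and 24629 NE in P, with hsa-miR-126-5p as the most abundant, at 23369 NE and 14955 NE. Among the rows used here no name carried miR-200b of the epithelial list, miR-133b or miR-206 of the muscle list, miR-150 or miR-146b of the blood list, or miR-221 of the endothelial list, and miR-499 stood only under the name miR-499a. The part of a different mixture of cells in the members' ratios was not tested, and fewer cells of a type and less RNA per cell cannot be told apart in pooled tissue.

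Predicted targets were listed for 1 member, miR-24-5p, with 422 target identifiers. The authors ran the prediction only on microRNAs they held to differ between the libraries, so the absence of the other members from the list says nothing about their targets. This was place 101 of the 142 names with targets, whose median was 578.5 identifiers. The identifiers were not matched to gene names here.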

How the data were processed

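Small RNA of 1 receptive (R) and 1 pre-receptive (P) library was read from the tables of known and predicted microRNAs. The authors filtered the reads with ACGT101-miR, kept 18 to 26 nt, matched them to miRBase 20.0 precursors and the goat genome (build not given in the sources used here), and deposited a normalized signal per name and library (NE). The methods describe NE as scaled to the total of clean reads, which the column totals contradict; the values step by 0.860 NE in R and 1.16 NE in P. For microRNAs they held to differ, the authors predicted targets with TargetScan 5.0 and miRanda 3.3a. The authors' own ratio and P-value were not used. Precursor names per species and target identifiers were counted as deposited.

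In the predicted table the letters R and P were swapped relative to the differential expression table: after swapping them back, 70 of 70 shared names had equal values within 0.0051, and with letters as written 0 had. The swapped reading was used. Reads were NE divided by the worth of 1 read; within 0.01 of a whole number were 77.4% of known entries in R and 83.2% in P, others being fractions shared among precursors. A repeated name was counted once in tests, with its reads summed over entries and the NE of 1 entry. For levels and ranks both its reads and its NE were summed over entries. A sequence under 2 names was counted once in marker levels. Marker names were matched by exact number and letter. The R library had 4233874 clean reads and the P library 5386427. Names above 0 in both libraries and with at least 1 NE in 1 were tested by Fisher's exact test on rounded reads, Benjamini-Hochberg adjusted over 564 names. Arms were read from names; a name with no arm took the arm of a labelled name sharing 12 bases, or else the other arm. Intervals are exact, at 95%. The tests were also run on simulated reads with counting error alone. These had no spread between goats, so they do not bear on a difference between the phases.

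The members, lists and tests were chosen with earlier results of these data known. Named were every member, for each of the 3 most abundant the 3 known names with at least 1000 reads in both libraries nearest in log2 ratio, names sharing a seed with a member, the most abundant name of each marker list, and the hairpins with the 3 largest and 3 smallest arm changes among those called. Marker lists were epithelium (miR-200a, miR-200b, miR-200c, miR-141, miR-429, miR-203, miR-205, miR-375, miR-182, miR-183, miR-96), smooth and striated muscle (miR-1, miR-133, miR-133a, miR-133b, miR-143, miR-145, miR-206, miR-499), blood and immune cells (miR-142, miR-150, miR-155, miR-223, miR-144, miR-451, miR-486, miR-146a, miR-146b) and endothelium (miR-126, miR-130a, miR-221, miR-222, miR-424, miR-503, miR-132). Alternatives were 3 other scalings, another exact test, unadjusted p, other filters, a pseudocount of 1 NE, 0.5 added to counts, and substituted names left out. Hairpin sequences were not used here. Statistics used scipy 1.17.1 and numpy 2.4.6, tables pandas 2.3.3 and plots matplotlib 3.10.9, under Python 3.11.15.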

Additional observations from a re-analysis of the deposited data

How the results depend on the processing

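Counts of calls were compared within 1.5 times, and values with no test against their 95% exact interval, which is wide for the median of a short list and narrow for a sum of many reads. Another p or test leaves a log2 ratio as it is, and a scaling adds a constant to every log2 ratio, so values that held under these say little about stability. Of 122 values recomputed under an alternative, 94 were taken as the same, 18 as moved, 9 as reversed and 1 as stronger. Each reversal came with a scaling of the libraries. Per clean reads, the log2 ratio was 0.37 for miR-23b-3p, 0.77 for miR-24-3p, 0.059 for miR-27b-3p and 0.21 for the summed members, each opposite in sign to NE, and 17 names were called lower in R. Per listed reads, these log2 ratios were 1.10, 1.50, 0.79 and 0.95, miR-27b-5p reached 1.64, 4 of the 5 members tested were called (miR-23b-3p, miR-24-3p, miR-27b-5p and miR-24-5p) against 1 in NE, and 232 names were called (41.1%, against 22.7% in NE), 10 of them lower in R. The scalings of the marker lists were added after seeing the data. Scaling by clean reads took the endothelial median to 1.25 and the blood median to 1.07. On that scale 8 of 13 endothelial, 5 of 10 blood (4 of 8 distinct sequences) and 11 of 13 epithelial names were called higher in R. Of the muscle names 6 of 8 were called lower. Of all 564 names tested, 187 were called on that scale, with 90.9% of these calls higher in R and 17 names lower. The median log2 ratio of all names tested was 0.71 on that scale. Scaling by listed reads moved the epithelial, blood and endothelial medians to 4.56, 1.81 and 1.99. With the median log2 ratio set to 0, miR-24-3p turned to 0.056 and the summed members moved to -0.50. The share of calls that were higher in R was 73.4% in NE, 90.9% per clean reads, 95.7% per listed reads and 59.7% with the exact binomial test that follows NE, under which 54 names were called lower. With unadjusted p 10 hairpin names had a lower share of the less abundant arm in R, and with substituted names left out 3 had, where fewer names were tested. The miR-24 arm share has no value with substituted names left out, nor has miR-23b with at least 10 reads of the less abundant arm. miR-24-5p kept its call with the exact binomial test, with an adjusted p of 7.19e-07, and with a pseudocount of 1 NE, at a log2 ratio of 1.31. The median of the muscle list went from -3.65 to -2.42 with names of at least 10 reads in both libraries and with names that add a letter to a listed number, the latter chosen after seeing the data. With a sequence listed under 2 names counted once, chosen after seeing the data, the blood list had 8 tested entries in place of 10, its median stayed at 0.29, and the entries called per listed reads went from 5 to 4. The arm shares of miR-24 and miR-27b kept their call under each alternative that gave a value. None of these alternatives changed the reads from which their p was computed, so they do not test these calls. Which scaling fits these libraries was not tested. With 1 library per phase no library could be left out. No paired analysis was possible because each phase has 1 library.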

Other observations

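Besides the members, 1 name in either table shares a seed with one of them, the predicted candidate PC-5p-175228_3, with 0 reads in R and 3 reads (3.49 NE) in P. Its sequence is that of miR-27b-3p with 1 G of positions 9 and 10 left out and 1 base fewer at the 3′ end, with the seed in capitals.
PC-5p-175228_3: tTCACAGTgctaagttctg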
